A study of Mus musculus with 12 samples.

Results

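Astrocyte marker genes are described here across 12 RNA-seq libraries of mouse frontal cortex. The members are 31 genes that are widely used to mark astrocytes. They were found by symbol and Ensembl identifier among the 47069 genes of the count table, where each of the 31 matched 1 row. All 31 were among the 17286 genes with enough counts to be tested. The study has a design of genotype by treatment, with 4 groups of 3 libraries, and asks how chronic clozapine changes cortical gene expression in mice with and without the histone deacetylase HDAC2. All mice were male and of the C57BL/6 background. The labels give the genotypes as Wild-type and as HDAC2(loxP,loxP), CamKIIa-Cre(+,-), and the treatments as Vehicle or Clozapine at 10 mg/kg. Clozapine is an antipsychotic with affinity for many monoamine and muscarinic receptors. A group is called by its genotype and treatment, such as wild-type vehicle or knockout clozapine, and libraries keep the number in their label. No age is given in the labels, and they do not say whether the wild-type mice carried loxP alleles. The source is labelled as prefrontal cortex, and the extraction protocol names bilateral frontal cortex. The CamKIIa promoter drives Cre mainly in excitatory forebrain neurons and not in astrocytes, so the labelled deletion was not aimed at the cells that these genes mark.

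Astrocytes are the glial cells that surround synapses and blood vessels. They take up glutamate and GABA after release, convert glutamate to glutamine, buffer potassium and water, couple to each other through gap junctions, and store glycogen that feeds lactate production. Their intermediate filament protein GFAP is abundant in white matter and under the pia, and rises when astrocytes react to injury, whereas most protoplasmic astrocytes of grey matter are better marked by transporters and metabolic enzymes. Several of the 31 genes are also used by other cells, such as Vim and S1pr1 in vessels, Glul and S100b in oligodendrocytes, and Fabp7 in oligodendrocyte precursors.

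Total counts per library lay between 23408372 and 28069638. Libraries of the same group differed by more than counting error, so the spread between libraries sets the precision. Nothing in the labels ties the libraries to animals beyond group and number, so p-values measure only the spread between these libraries. Hdac2, counted over its whole length, had 63.4 to 76.6 CPM (counts scaled to library size, with TMM factors) in the 12 libraries. No genotype difference passed the test (log2 difference 0.03, SE 0.04, adjusted p = 0.651 averaged over treatments, edgeR). A count over the whole gene does not test the loss of a loxP-flanked exon in a subset of cells, and the mice are therefore called labelled knockouts.

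Every astrocyte marker gene was expressed in every library. Levels of different genes are compared as CPM per kilobase of exon, averaged over the 12 libraries. Glul, which encodes the glutamine synthetase that turns glutamate into glutamine, was highest at 529 CPM per kilobase, above 99.7% of the tested genes with a known length. Aldoc, the brain isoform of the glycolytic enzyme aldolase, followed at 269. Slc1a2, the main glutamate transporter of the forebrain, had 182, and Fam107a, an actin-associated protein of astrocytes, had 108 CPM per kilobase. The lowest levels were those of Cbs, a cystathionine synthase, at 3.72, of the cystine and glutamate exchanger gene Slc7a11 at 3.21, and of angiotensinogen (Agt) at 2.88 CPM per kilobase. Gfap itself stood at 21.3 CPM per kilobase, near the middle of the list. The order from Glul down to Fam107a was the same in every library, whereas neighbours further down overlapped in the plot of levels.

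**Figure D1:**
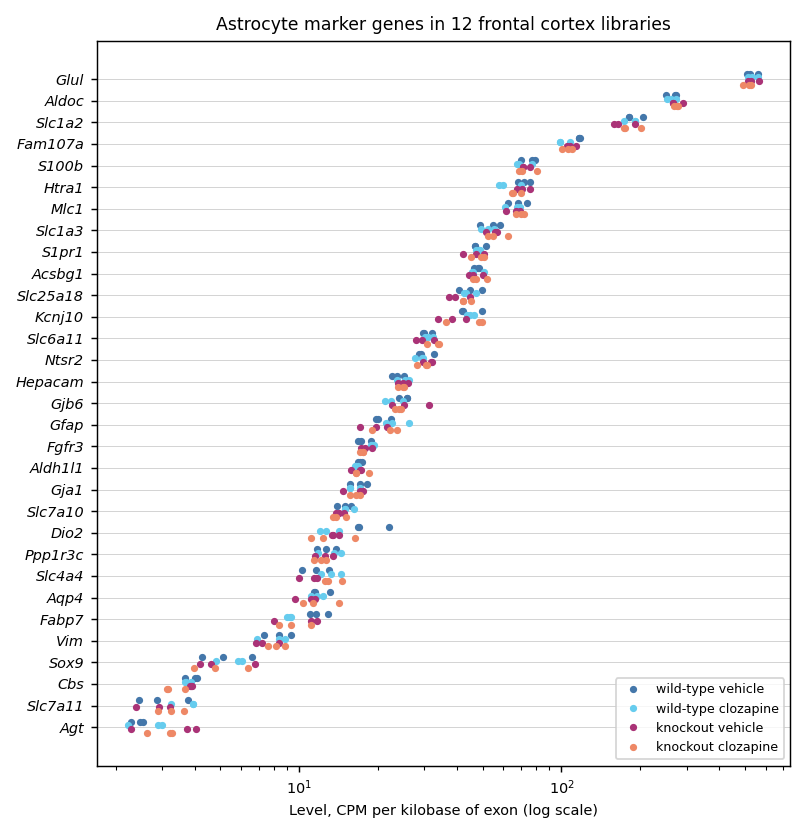
Level of each of the 31 genes in each library, in CPM per kilobase of exon on a log axis, with genes ordered by their mean over 12 libraries and points coloured by group. Glul averages 529 and Agt 2.88 CPM per kilobase, and the points of the 4 groups lie over each other for most genes.

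The spread between libraries was small for most of these genes. The ratio of the highest to the lowest of the 12 libraries ran from 1.15 for Glul to 1.98 for Dio2, with a median of 1.27. It was under 1.5 for 25 of the 31 genes. Group means spanned less than 1.2-fold in 25 of the 31, with a median span of 1.10-fold. The summed level of the 31 genes was 8566 ± 468, 8401 ± 187, 8235 ± 333 and 8404 ± 439.7 CPM (mean ± SD, n = 3) in the wild-type groups on vehicle and clozapine and then the labelled knockout groups. The 31 genes took between 0.786% and 0.894% of a library's counts. The library ranges of the 4 groups overlapped on this sum. In bulk tissue, fewer astrocytes and less RNA per astrocyte cannot be told apart.

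None of the 31 genes passed edgeR's quasi-likelihood test at an adjusted p of 0.05 in any of 7 comparisons. For clozapine against vehicle in wild type the count was 0 of 31, where 0.816% of all tested genes passed, and 5 members had an unadjusted p under 0.05 (all genes 11.6%). In the labelled knockout it was 0 of 31 against 0.0231% of all genes, with 2 at an unadjusted p under 0.05 (all genes 12.2%). The genotype comparison under vehicle, labelled knockout minus wild type, gave 0 of 31 against 9.16% of all genes, with 2 members at an unadjusted p under 0.05, beside 23.8% of all genes. Under clozapine the genotype comparison gave 0 of 31 against 2%, with 2 at an unadjusted p under 0.05 (all genes 15.9%). The interaction, in which the wild-type response to clozapine is subtracted from the response of the labelled knockout, gave 0 of 31 against 0.654%, with 3 at an unadjusted p under 0.05 (all genes 13.6%). Averaged over treatments the genotype comparison gave 0 of 31 against 10.5%, with 1 at an unadjusted p under 0.05 (all genes 25.5%). Averaged over genotypes the clozapine comparison gave 0 of 31 against 0.15%, with 7 at an unadjusted p under 0.05, beside 11.2% of all genes.

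Other tools called a few members. DESeq2 called 2 for clozapine in wild type (Dio2 and Fam107a), beside 2.12% of all genes to which it gave an adjusted p. It called 1 for genotype under vehicle (Dio2), beside 10.7%, 1 for clozapine averaged over genotypes (Slc4a4), beside 1.10%, and 0 in the other 4 comparisons. With limma-voom the count was 1, again Dio2 for genotype under vehicle, beside 9.07% of all genes, and 0 in the other 6. The median log2 difference over the 31 genes was -0.02 for clozapine in wild type, 0.00 for clozapine in the labelled knockout, -0.04 for genotype under vehicle and 0.03 for genotype under clozapine. The median over all tested genes lay within 0.01 of 0 in each of these comparisons. Under vehicle, 23 of the 31 genes had a lower mean in the labelled knockout, and under clozapine 12 of 31 did. Of all tested genes, 50.9% were higher in the labelled knockout under vehicle and 48.7% under clozapine. The members tended to move together by library, so these counts are not of independent genes. A clozapine and a genotype comparison share libraries, so their values are set side by side and not correlated. The 2 clozapine comparisons share no library, and 45.2% of members had the same direction in both (all tested genes 48.1%). The 2 genotype comparisons share none either, and 45.2% of members had the same direction (all tested genes 59.3%).

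**Figure D2:**
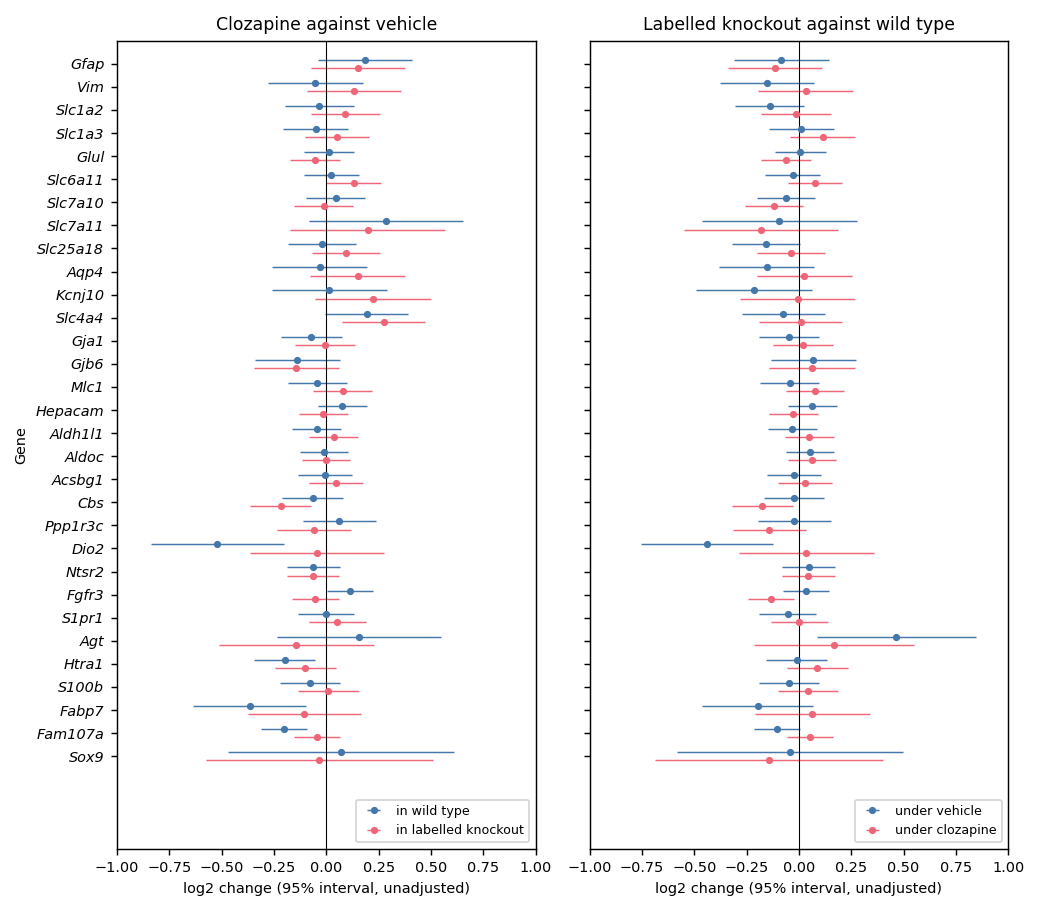
Log2 difference of each of the 31 genes with its unadjusted 95% interval, for clozapine against vehicle in each genotype (left) and for genotype within each treatment (right), genes in blocks by role. Most intervals cross 0, and Dio2 stands furthest below 0 in wild type (-0.52) and under vehicle (-0.44).

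The intervals bound how large a difference these libraries could hide. The bounds of 1.25-fold and 1.5-fold were chosen after the data were seen. For clozapine in wild type the unadjusted 95% interval lay within 1.25-fold of no difference for 22 of the 31 genes and within 1.5-fold for 27. For clozapine in the labelled knockout these counts were 19 and 31. For genotype under vehicle they were 23 and 29, with Dio2 and Agt outside the wider bound. For genotype under clozapine they were 25 and 30, with Sox9 outside it. The interaction was less precise: 16 of 31 were within 1.25-fold and 25 within 1.5-fold.

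A simpler reading asks whether all 3 libraries of a group lay above or below all 3 of the other. For clozapine in wild type this held for 5 of the 31 genes, beside 15.6% of all tested genes: Fgfr3 was higher, and Fam107a, Dio2, Fabp7 and Aldh1l1 were lower. In the labelled knockout it held for 2, beside 18.7%: Slc4a4 was higher and Cbs lower. For genotype under vehicle it held for 2, Dio2 and Fam107a, both lower, beside 27.3%. Under clozapine it held for 2, Fgfr3 and Cbs, both lower in the labelled knockout, beside 22.5%. These counts are near or below the share over all genes.

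Dio2 encodes the type 2 deiodinase, which makes the active thyroid hormone T3 from T4 and is found in astrocytes of the brain. It gave the largest difference of the list for clozapine in wild type and for the interaction. Its values were 127, 98.4 and 97.7 CPM in wild-type vehicle 1, 3 and 4, against 82.4, 69.6 and 73.3 in wild-type clozapine 2, 3 and 5. Knockout vehicle 2, 4 and 5 had 77.6, 78.6 and 82.3, and knockout clozapine 3, 4 and 5 had 64.5, 71.8 and 94.7 CPM. The 3 wild-type vehicle libraries stood above all 9 others, and knockout clozapine 5 came closest to them. The difference did not pass edgeR's test for clozapine in wild type (log2 difference -0.52, SE 0.14, adjusted p = 0.156) or for genotype under vehicle (log2 difference -0.44, SE 0.14, adjusted p = 0.0861). Both comparisons rest on the same 3 wild-type vehicle libraries.

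The call on Dio2 depended on the test. Over the 22 alternatives its adjusted p ran from 0.00313 to 0.361 for clozapine in wild type and from 0.00665 to 0.226 for genotype under vehicle, with DESeq2 at the low end of both. It passed for both comparisons also without knockout clozapine 5, with edgeR adjusted p of 0.0372 and 0.0196. That library also moved the genotype comparison averaged over treatments, which gave log2 difference -0.20, SE 0.10, adjusted p = 0.247 with it and an adjusted p of 0.0344 without it. Without wild-type vehicle 1, the library highest in Dio2, the log2 difference was -0.38 for clozapine in wild type and -0.30 for genotype under vehicle. In the labelled knockout the clozapine difference was -0.05, and the interaction did not pass (log2 difference 0.47, SE 0.20, adjusted p = 0.345).

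Fam107a had the smallest p of the list. It encodes an actin-associated protein that is known to be induced by glucocorticoids and stress. Wild-type vehicle libraries had 453, 451 and 455 CPM and wild-type clozapine libraries had 383, 415 and 382. Knockout vehicle libraries had 407, 417 and 439 and knockout clozapine libraries had 388, 411 and 426 CPM. All 9 other libraries lay below the 3 of wild-type vehicle, which had an SD of 2.0 CPM. For clozapine in wild type the value did not pass edgeR's test (log2 difference -0.20, SE 0.05, adjusted p = 0.0853). The adjusted p ran from 0.0103 with DESeq2 to 0.434 with the replicate block, which takes wild-type vehicle 1 out of the comparison. It was 0.0402 without a filter on low counts and 0.0454 without knockout vehicle 5, a library outside the comparison that enters the shared estimate of spread. Averaged over genotypes the clozapine difference did not pass either (log2 difference -0.12, SE 0.04, adjusted p = 0.199), nor did the interaction (log2 difference 0.16, SE 0.07, adjusted p = 0.355).

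The promoters of these 2 genes are shown because they are the members of smallest p for clozapine in wild type, and because each was found, after the data were seen, to hold a motif of a signalling pathway that no other member with a window holds. RefSeq windows of 250 bases before a gene start (GRCm38.p6) were found for 28 of the 31 genes, and 32851 windows of all genes served as the background. Both strands were searched for the cAMP response element TGACGTCA, the glucocorticoid response element GNACANNNTGTNC, the STAT site TTCNNNGAA and the TATA box TATAAA, where N is any base and no motif contains another. In each sequence, written 5′ to 3′ on the gene's strand, capitals mark the motif. Dio2 is at chr12:90724552-90738438 on the minus strand, and its window chr12:90739039-90739288 precedes a RefSeq start that lies upstream of the gene as annotated by GENCODE. The cAMP response element ends 87 bases before that RefSeq start. Fam107a is at chr14:8296274-8318023 on the minus strand and has 3 windows. The window shown, chr14:8309780-8310029, precedes a start inside the longest annotated form, with the glucocorticoid response element ending 105 bases before that start.
Dio2: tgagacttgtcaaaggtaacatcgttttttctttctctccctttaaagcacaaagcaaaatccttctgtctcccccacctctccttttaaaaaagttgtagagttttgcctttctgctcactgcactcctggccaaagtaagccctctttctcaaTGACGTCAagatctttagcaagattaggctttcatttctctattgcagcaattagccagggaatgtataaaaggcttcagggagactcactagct
Fam107a: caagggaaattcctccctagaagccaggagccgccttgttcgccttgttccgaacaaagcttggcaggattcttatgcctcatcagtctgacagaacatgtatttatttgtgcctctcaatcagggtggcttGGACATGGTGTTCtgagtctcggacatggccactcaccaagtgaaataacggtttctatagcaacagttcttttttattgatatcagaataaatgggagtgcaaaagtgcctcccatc
The cAMP response element was in 1.55% of all windows and in 1 of 28 members (Dio2). The glucocorticoid response element was in 0.387% of all windows and in 1 of 28 (Fam107a). The STAT site was in 7.02% of all windows and in 6 of 28 members (Acsbg1, Agt, Aldoc, Ntsr2, Slc1a3 and Slc7a11). The TATA box was in 12.4% of all windows and in 5 of 28 (Agt, Dio2, Slc1a3, Slc25a18 and Vim). Genes with several windows had more chances of a match, and a match of letters is not evidence of binding.

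**Figure D3:**
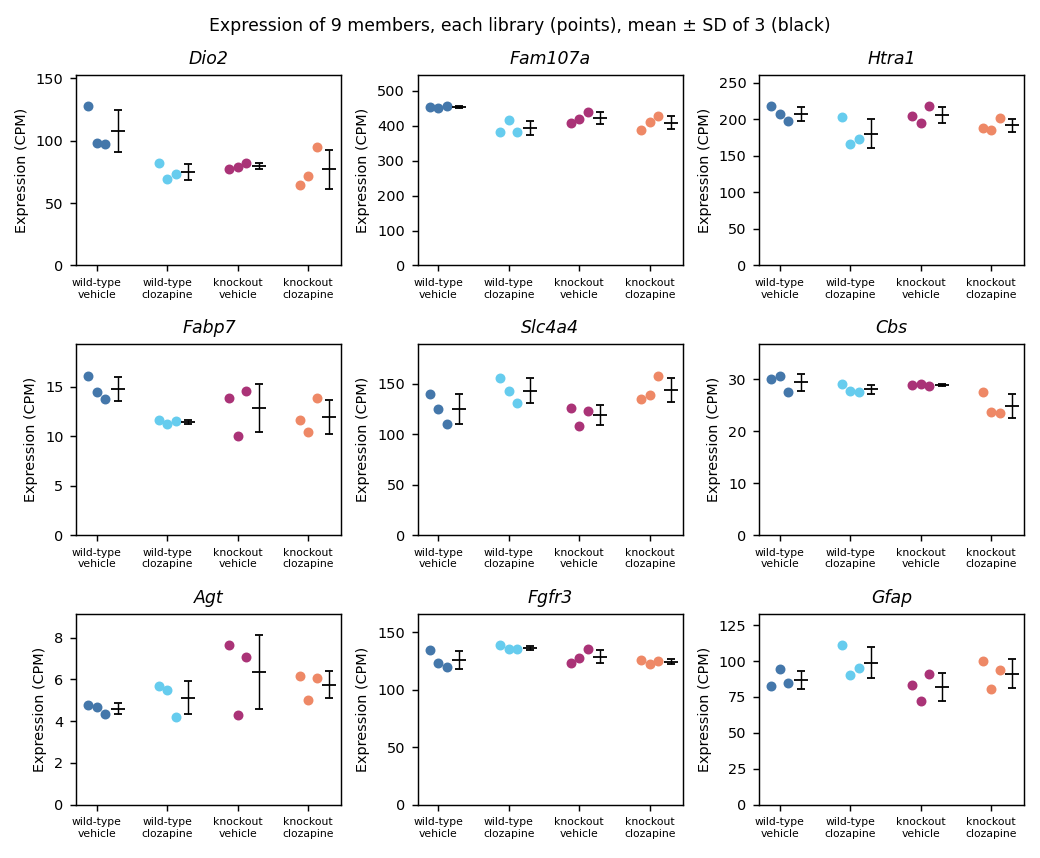
Expression in CPM of 9 of the 31 genes in each library (points, coloured by group) with the mean and SD of 3 libraries (black), each axis starting at 0. Gfap is included as the best known marker. Dio2 and Fam107a are highest in wild-type vehicle, and Fam107a averages 453 CPM there against 393 in wild-type clozapine.

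The other genes follow by role, with group values in the same order (wild type on vehicle, then on clozapine, then the labelled knockout likewise), as mean CPM ± SD of 3 libraries. Of the intermediate filament genes, Gfap had 87.0 ± 6.27, 98.8 ± 10.8, 82.1 ± 9.67 and 91.2 ± 10.1. Clozapine groups were higher in both genotypes, by 0.18 and 0.15 on the log2 scale, without passing the test (log2 difference 0.17, SE 0.07, adjusted p = 0.420 averaged over genotypes). Wild-type clozapine 2 was the highest library at 111 CPM and knockout vehicle 4 the lowest at 71.9, and the groups overlapped. Vim, which encodes vimentin and is also made by vessel cells, had 39.5 ± 4.61, 38.0 ± 4.76, 35.4 ± 3.75 and 38.9 ± 2.82, and its 4 simple differences ran from -0.15 to 0.13.

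None of the 7 genes of transmitter uptake and amino acid use passed edgeR's test in any comparison. Slc1a2 had 2478 ± 188, 2421 ± 129, 2249.6 ± 219 and 2396 ± 209 CPM, with the labelled knockout lower under vehicle by a log2 difference of -0.14 that did not pass (adjusted p = 0.303, edgeR). Slc1a3, the other glial glutamate transporter, had group means from 447 to 483 CPM and differences of -0.05 to 0.11. Glul, at 1767 ± 89.4, 1781 ± 78.6, 1776 ± 92.5 and 1708 ± 60.6 CPM, varied least of all members, and its differences lay between -0.06 and 0.01. The interval of Glul for clozapine in wild type ran from -0.11 to 0.13 on the log2 scale, so a change as large as 1.25-fold lay outside it. Slc7a11, which imports cystine in exchange for glutamate, was the most scattered of this group, at 42.3 ± 9.34, 51.5 ± 5.55, 39.5 ± 5.89 and 45.4 ± 5.26 CPM, and its differences ran from -0.18 to 0.29.

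Slc6a11, the GABA transporter GAT-3 at chr6:114131241-114249952, had 165, 141 and 149 CPM in knockout vehicle and 170.4, 155 and 172 in knockout clozapine. The groups overlapped and the difference did not pass (log2 difference 0.13, SE 0.06, adjusted p = 0.408), with wild-type libraries at 162, 149.9 and 151 and 156, 152 and 163. Slc25a18, a mitochondrial glutamate carrier at chr6:120773578-120794336, had 95.1, 77.6 and 85.9 CPM in wild-type vehicle, against 75.2, 71.0 and 85.6 in knockout vehicle. Knockout vehicle 5 overlapped with wild type and the genotype difference did not pass (log2 difference -0.16, SE 0.08, adjusted p = 0.232). Its clozapine libraries had 90.1, 81.6 and 82.8 in wild type, against 80.7, 80.7 and 86.2 in the labelled knockout. Slc7a10, a transporter of small neutral amino acids at chr7:35186385-35201114, had 31.6, 31.6 and 34.0 CPM in wild-type clozapine and 29.2, 28.3 and 32.0 in knockout clozapine, which overlapped (log2 difference -0.12, SE 0.07, adjusted p = 0.409). Averaged over treatments its genotype difference did not pass (log2 difference -0.09, SE 0.05, adjusted p = 0.244), and the vehicle libraries had 31.5, 33.2 and 29.5 in wild type, against 29.2, 29.9 and 31.3 in the labelled knockout.

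Among the membrane proteins of water, ion and gap junction transport, Slc4a4 differed most. It encodes a sodium bicarbonate cotransporter and is at chr5:88886818-89239653. Knockout vehicle libraries had 126, 108 and 123 CPM and knockout clozapine libraries had 135, 139 and 158, all 3 above the former. Wild-type vehicle libraries had 141, 125 and 111 and wild-type clozapine libraries had 156, 143 and 131, which overlapped. The clozapine difference did not pass in the labelled knockout (log2 difference 0.28, SE 0.09, adjusted p = 0.231), and with the replicate number as a block the adjusted p was 0.0379. Averaged over genotypes it did not pass with edgeR (log2 difference 0.23, SE 0.07, adjusted p = 0.193), and DESeq2 gave an adjusted p of 0.0495. Over the alternatives these values ran from 0.0379 to 0.507 and from 0.0495 to 0.369.

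Aqp4, the water channel of astrocyte endfeet, had 74.6 ± 5.86, 73.0 ± 3.87, 67.0 ± 6.18 and 74.3 ± 12.4 CPM. Kcnj10, the potassium channel Kir4.1, had 241 ± 25.5, 243 ± 6.70, 208 ± 26.1 and 242 ± 40.7, and its knockout clozapine libraries spanned 195, 261 and 269.7. Both were lowest on average in knockout vehicle, with genotype differences under vehicle of -0.15 and -0.21 on the log2 scale that did not pass (adjusted p = 0.413 and 0.344, edgeR). The connexin 43 gene Gja1 had group means from 166 to 174 CPM and differences from -0.07 to 0.02. The connexin 30 gene Gjb6 had 67.3 ± 2.73, 61.1 ± 4.84, 70.5 ± 12.1 and 63.9 ± 1.55 CPM, lower under clozapine by -0.14 and -0.14 in wild type and labelled knockout. Knockout vehicle 5 set the upper end for Gjb6 at 83.9 CPM, and the difference averaged over genotypes did not pass (adjusted p = 0.450, edgeR). Mlc1 and Hepacam encode partner proteins of astrocyte junctions. Mlc1 had group means from 185 to 195 CPM and Hepacam from 79.6 to 83.9, with differences from -0.04 to 0.08 and from -0.03 to 0.08.

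Among the metabolic enzymes other than Dio2, Cbs was the member with the smallest p in the labelled knockout. Cystathionine beta-synthase starts the route from homocysteine to cysteine, and its gene is at chr17:31608894-31637238. Knockout vehicle libraries had 29.0, 29.1 and 28.7 CPM and knockout clozapine libraries had 27.5, 23.6 and 23.5, without overlap. Wild-type vehicle libraries had 30.0, 30.6 and 27.5 and wild-type clozapine libraries had 29.0, 27.6 and 27.5, so knockout clozapine 4 and 5 were the lowest of the 12. The clozapine difference in the labelled knockout did not pass (log2 difference -0.22, SE 0.07, adjusted p = 0.197). Genotype differences did not pass under clozapine (log2 difference -0.17, SE 0.07, adjusted p = 0.221) or averaged over treatments (log2 difference -0.10, SE 0.05, adjusted p = 0.217). Aldoc had 865 ± 44.6, 857 ± 31.9, 896 ± 47.5 and 895 ± 17.6 CPM, and its differences ran from -0.01 to 0.06. Aldh1l1, a folate enzyme used to label all astrocytes, had 76.9 ± 1.40, 74.5 ± 0.869, 75.2 ± 3.68 and 77.1 ± 5.33 CPM, and its wild-type groups did not overlap although their means differed by -0.05 on the log2 scale. Acsbg1, which activates long-chain fatty acids, had group means from 169 to 174 CPM. Ppp1r3c, which targets a phosphatase to glycogen, had group means from 32.8 to 36.1 CPM and had a genotype difference of -0.14 under clozapine (adjusted p = 0.436, edgeR).

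Of the receptor genes, Fgfr3 encodes a fibroblast growth factor receptor and is at chr5:33721674-33737068. Wild-type libraries had 135, 123 and 119.9 CPM under vehicle and 138, 135 and 135 under clozapine. Labelled knockout libraries had 123, 127 and 135 under vehicle and 126, 122 and 125 under clozapine. The 3 wild-type clozapine libraries lay above wild-type vehicle, by a narrow margin over library 1, and above knockout clozapine. Neither the genotype difference under clozapine (log2 difference -0.13, SE 0.05, adjusted p = 0.216) nor the interaction (log2 difference -0.17, SE 0.07, adjusted p = 0.336) passed. Ntsr2, a neurotensin receptor, had 94.1 ± 6.93, 90.1 ± 3.56, 97.2 ± 3.82 and 93.0 ± 4.49 CPM and differences from -0.06 to 0.05. S1pr1, a sphingosine phosphate receptor that vessels also carry, had group means from 142 to 147 CPM and differences from -0.05 to 0.05.

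The last group holds secreted and cytosolic proteins and a transcription factor. Htra1, a secreted serine protease at chr7:130936111-130985660, had 218, 207 and 197 CPM in wild-type vehicle, against 203, 166 and 173 in wild-type clozapine. Wild-type clozapine 2 overlapped with vehicle while the other 2 were lower, and the difference did not pass (log2 difference -0.20, SE 0.07, adjusted p = 0.225). Without that library the log2 difference was -0.30 with an adjusted p of 0.0478, in a range of 0.0478 to 0.486 over the alternatives. Labelled knockout libraries had 204, 195 and 218 under vehicle and 188, 186 and 202 under clozapine, and the clozapine difference averaged over genotypes did not pass (log2 difference -0.15, SE 0.05, adjusted p = 0.244). Fabp7, a fatty acid binding protein shared with progenitors, had 16.1, 14.5 and 13.8 CPM in wild-type vehicle, against 11.6, 11.3 and 11.5 in wild-type clozapine. These did not overlap, and the difference did not pass (log2 difference -0.37, SE 0.13, adjusted p = 0.230). Its labelled knockout libraries had 13.9, 10.0 and 14.6 and 11.6, 10.4 and 13.9 CPM.

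Angiotensinogen (Agt, chr8:124556534-124569706), the precursor of the angiotensins, was the lowest expressed member and the one with the largest positive genotype difference. Wild-type vehicle libraries had 4.79, 4.69 and 4.32 CPM and knockout vehicle libraries had 7.63, 4.31 and 7.06. Knockout vehicle 4 lay just below the lowest of wild-type vehicle, while 2 and 5 lay above all 3. The difference did not pass under vehicle (log2 difference 0.47, SE 0.18, adjusted p = 0.121) or averaged over treatments (log2 difference 0.32, SE 0.13, adjusted p = 0.129). Without knockout vehicle 4 the log2 difference was 0.67 under vehicle with an adjusted p of 0.0100, in a range of 0.0100 to 0.369 over the alternatives. Averaged over treatments it was 0.42 without that library, with an adjusted p of 0.0135. Clozapine libraries had 5.67, 5.49 and 4.22 CPM in wild type, against 6.18, 4.99 and 6.08 in the labelled knockout, with overlap. S100b, a calcium-binding protein, had group means from 106 to 112 CPM and differences from -0.08 to 0.04. Sox9, the transcription factor of astrocyte identity, had 22.1 ± 4.86, 23.1 ± 2.80, 21.4 ± 5.78 and 20.9 ± 5.04 CPM, and its wide intervals reached -0.69 for genotype under clozapine.

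The members tended to be high or low in the same libraries within a group. Wild-type vehicle 1 was the highest of its group for 23 of the 31 genes and knockout clozapine 5 for 21. Wild-type clozapine 2 was highest in its group for 20. Knockout vehicle 4 was the lowest of its group for 20 genes and of all 12 libraries for 11, knockout clozapine 4 was lowest of its group for 20 and wild-type clozapine 3 for 19. The median member deviated from its mean over 12 libraries by 0.11 on the log2 scale in wild-type vehicle 1 and by -0.13 in knockout vehicle 4. The same counts were not made over all genes, so this is not shown to be particular to astrocyte genes. In wild-type vehicle 1 the summed excitatory neuron markers were also the highest of the group (9925 CPM), and the summed oligodendrocyte markers were the lowest (1676 CPM). Dio2, Agt, Sox9 and Slc7a11 showed the largest single deviations in the plot of deviations.

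**Figure D4:**
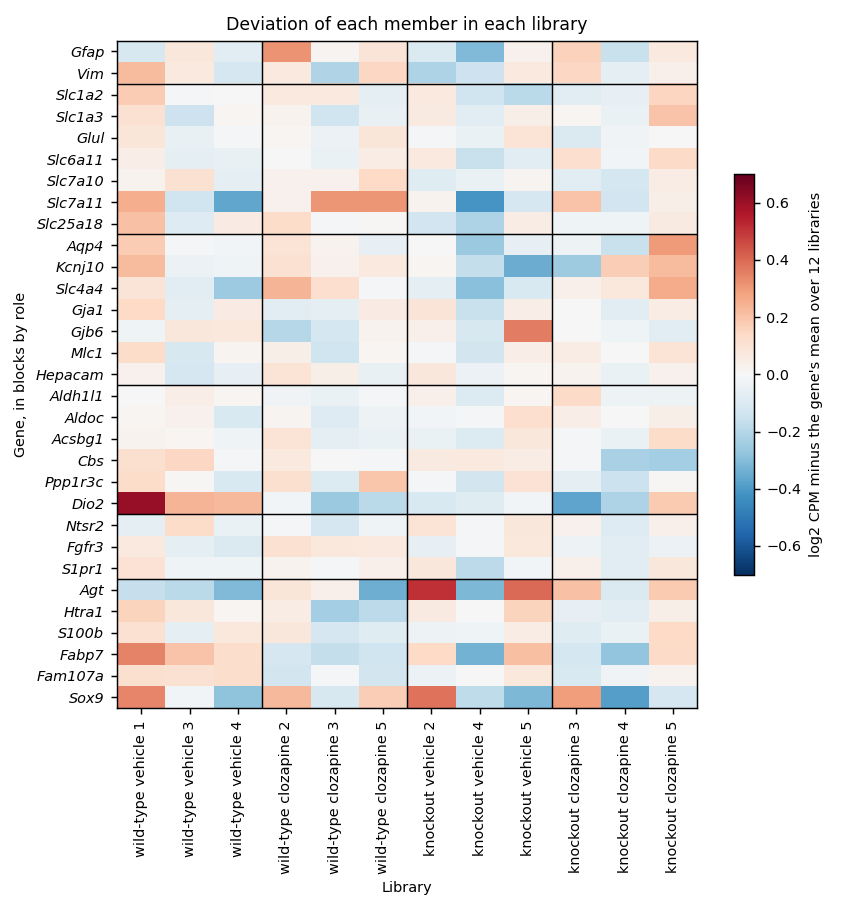
Deviation of each of the 31 genes (rows, in blocks by role) in each of 12 libraries (columns, in groups of 3), as log2 CPM minus the gene's mean over the libraries, red above and blue below. Wild-type vehicle 1 is mostly red (median deviation 0.11) and knockout vehicle 4 mostly blue (-0.13).

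Wider lists of astrocyte biology were set beside the 31. Of 34 other astrocyte genes, such as Apoe and Clu, 0 passed with edgeR for clozapine in wild type, in the labelled knockout or averaged over both. An unadjusted p under 0.05 was found for 3, 2 and 1 of them, beside 11.6%, 12.2% and 11.2% of all tested genes. DESeq2 and limma-voom also called 0 of the 34 for clozapine. Their summed level was 8678 ± 218, 8614 ± 296, 8595 ± 461 and 8831 ± 320.1 CPM. For genotype averaged over treatments, 1 rose and 2 fell, where 10.5% of all tested genes passed, so the list's share of calls was not above that of all genes. Atp1b2, a sodium pump subunit, rose (log2 difference 0.16, SE 0.04, adjusted p = 0.0197), while the phospholipase gene Plcd4 (log2 difference -0.19, SE 0.05, adjusted p = 0.0317) and the cholesterol esterifying enzyme Lcat (log2 difference -0.17, SE 0.05, adjusted p = 0.0338) fell. The call on Atp1b2 ended on leaving out number 3 of wild-type vehicle, number 3 of wild-type clozapine, number 2 of knockout vehicle or number 3 of knockout clozapine, where the log2 difference was 0.14 to 0.15 and the adjusted p 0.0523 to 0.0622. The call on Plcd4 ended on leaving out any library other than number 4 of wild-type vehicle, number 2 of wild-type clozapine, number 4 of knockout vehicle and number 4 of knockout clozapine, where the log2 difference was -0.20 to -0.18 and the adjusted p 0.0527 to 0.0808. It also ended with DESeq2 (adjusted p = 0.0593), no filter on low counts (adjusted p = 0.0853) and the replicate block (adjusted p = 0.120). The call on Lcat ended on leaving out any library other than number 4 of wild-type vehicle, numbers 2 and 5 of wild-type clozapine, number 5 of knockout vehicle and number 3 of knockout clozapine, where the log2 difference was -0.17 to -0.15 and the adjusted p 0.0557 to 0.0898. It also ended with no filter on low counts (adjusted p = 0.0751) and the replicate block (adjusted p = 0.154). Under clozapine Lcat also fell (log2 difference -0.27, adjusted p = 0.0488), the only call of the 34 there, beside 2% of all tested genes. That call ended on leaving out any of 10 libraries (adjusted p 0.0553 to 0.174). It also ended with limma-voom, no filter on low counts, the replicate block, 1 surrogate variable and only the 2 groups compared. For genotype averaged over treatments the median difference of the 34 genes was 0.00.

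Of 20 tested genes linked to reactive astrocytes, 0 passed with edgeR for clozapine in wild type (all genes 0.816%). There 2 higher and 4 lower genes had an unadjusted p under 0.05 (all genes 11.6% either way). DESeq2 called 1 lower, beside the share of all genes given for it above, and limma-voom 0. In the labelled knockout 0 passed with any of the 3 tools, and 2 had an unadjusted p under 0.05 (all genes 12.2%). With genotype under vehicle 2 fell, Hspb1 and Emp1, and 0 rose, a share of calls near the 9.16% of all tested genes. The vehicle call on Emp1 ended without knockout vehicle 2, with a log2 difference of -0.88 and an edgeR adjusted p of 0.0503. Hspb1, a small heat shock protein that vessel cells also make, had 14.9, 14.1 and 11.6 CPM in wild-type vehicle, against 6.73, 6.39 and 7.41 in knockout vehicle, and it fell (log2 difference -0.98, SE 0.12, adjusted p = 1.40e-04). Clozapine libraries had 11.0, 9.12 and 8.86 in wild type, against 7.21, 6.18 and 6.78 in the labelled knockout, so all 6 labelled knockout libraries lay below all 6 wild-type libraries. Under clozapine Hspb1 also fell (log2 difference -0.52, adjusted p = 0.0341), the only call of the 20 genes there, beside 2% of all tested genes. That call ended on leaving out any of 5 libraries (adjusted p 0.0725 to 0.118). It also ended with limma-voom (adjusted p = 0.0559) and the replicate block (adjusted p = 0.0768). Averaged over treatments Hspb1 fell under each of 21 alternatives as well (log2 difference -0.75, SE 0.08, adjusted p = 5.28e-05). Emp1, an epithelial membrane protein, fell averaged over treatments (log2 difference -0.65, SE 0.16, adjusted p = 0.0135), and S100a10, a partner of annexin, rose (log2 difference 0.24, SE 0.06, adjusted p = 0.0215). The call on S100a10 ended on leaving out numbers 3 or 5 of wild-type clozapine or number 4 of knockout clozapine, where the log2 difference was 0.20 to 0.22 and the adjusted p 0.0513 to 0.0592. Averaged over treatments, 1 of the 20 genes rose and 2 fell past the test, beside 10.5% of all tested genes either way. The list as a whole had a median of 0.09 in that comparison.

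Of 12 genes for lactate, glycogen and glucose, Slc16a3, a lactate transporter that astrocytes use, rose with genotype under vehicle (log2 difference 1.05, SE 0.17, adjusted p = 0.00164) and averaged over treatments (log2 difference 0.88, SE 0.12, adjusted p = 3.71e-04). It had 2.13, 2.38 and 2.82 and 2.48, 2.45 and 2.51 CPM in the wild-type groups against 5.10, 5.60 and 4.57 and 5.11, 4.02 and 3.06 in the labelled knockout groups, without overlap. Pfkfb3, a regulator of glycolysis, fell averaged over treatments (log2 difference -0.49, SE 0.10, adjusted p = 0.0130). Its libraries had 64.3, 64.3 and 50.0 CPM in wild-type vehicle, 37.1, 46.7 and 34.4 in wild-type clozapine, 31.1, 42.3 and 35.2 in knockout vehicle and 31.2, 36.2 and 30.9 in knockout clozapine. Both passed for the average under each of 21 alternatives. Under clozapine Slc16a3 also passed (log2 difference 0.71, SE 0.18, adjusted p = 0.0486). That call on Slc16a3 ended on leaving out any library other than numbers 1 and 4 of wild-type vehicle, number 5 of knockout vehicle and number 5 of knockout clozapine, where the log2 difference was 0.51 to 0.72 and the adjusted p 0.0534 to 0.259. It also ended with limma-voom (adjusted p = 0.0849), the replicate block (adjusted p = 0.0772), 1 surrogate variable (adjusted p = 0.0727) and only the 2 groups compared (adjusted p = 0.0726). Under vehicle Pfkfb3 also fell (log2 difference -0.72, SE 0.14, adjusted p = 0.0132). That call on Pfkfb3 ended on leaving out number 3 of wild-type vehicle or number 5 of knockout vehicle, where the log2 difference was -0.70 to -0.66 and the adjusted p 0.0574 to 0.0595. It also ended with the replicate block (adjusted p = 0.130). Of the 12 genes, the genotype comparison called 2 under vehicle, 1 under clozapine and 2 on average, beside 9.16%, 2% and 10.5% of all tested genes. For clozapine 0 of the 12 passed with edgeR in wild type or in the labelled knockout. An unadjusted p under 0.05 was found for 1 and 0 of them, beside 11.6% and 12.2% of all tested genes. DESeq2 called 1 lower in wild type, beside the share of all genes given for it above, and limma-voom 0 in both. Of 10 genes that handle glutamate and glutamine outside astrocytes, Gls2, a glutaminase, fell with genotype averaged over treatments (log2 difference -0.21, SE 0.06, adjusted p = 0.0318), and the list had a median of -0.06. Gls2 was the only 1 of the 10 past the test there, beside 10.5% of all tested genes. The call on Gls2 ended on leaving out any library other than numbers 1 and 4 of wild-type vehicle, number 2 of wild-type clozapine, numbers 4 and 5 of knockout vehicle and number 4 of knockout clozapine, where the log2 difference was -0.21 to -0.17 and the adjusted p 0.0575 to 0.0932.

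Markers of other cell types are given because some differed between the wild-type groups on vehicle and clozapine, the comparison in which Dio2 and Fam107a had their smallest p. The summed level of 9 excitatory neuron markers was 8975 to 9925 CPM in wild-type vehicle and 8453 to 8754 in wild-type clozapine, against 8400.3 to 9173 in knockout vehicle and 9562 to 9965 in knockout clozapine. Of the 9 genes, 6 were lower and 3 higher with clozapine in wild type, with a median of -0.07 and 1 lower past the test (all genes 0.816%). In the labelled knockout 7 were higher and 2 lower with clozapine, with a median of 0.03 and 0 past the test (all genes 0.0231%). For genotype, 1 was lower past the test under vehicle (all genes 9.16%) and 2 were higher under clozapine (all genes 2%). The interaction had 1 higher past the test (all genes 0.654%). Red blood cell genes, 5 of 5 higher, had 138 to 180.4 CPM in wild-type vehicle and 212 to 437 in wild-type clozapine, with a median difference of 0.86. In the labelled knockout they had 139 to 205 under vehicle and 122 to 303 under clozapine. Meningeal fibroblast markers, 8 of 8 higher with clozapine in both genotypes, had medians of 0.36 and 0.29. Their sums ran over 131 to 157, 125 to 191, 117 to 187 and 157 to 218 CPM in the 4 groups, and no gene of the red blood cell or meningeal lists passed the test. None of the markers of these 3 lists was at 0 in any library. The part of these cells in the values of Dio2, Fam107a, Htra1, Fabp7 and Gfap was not tested.

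Vessel and glial lists were compared in the same way. Endothelial markers had a median genotype difference of -0.15 averaged over treatments, with 2 of 10 lower past the test beside 10.5% of all tested genes either way. In that comparison 8 of the 10 were lower and 2 higher, and both higher ones had an unadjusted p under 0.05. Under vehicle 2 were lower and 1 higher past the test (all genes 9.16%). Hspb1, which these cells also make, fell averaged over treatments, and the part of these cells in its values was not tested. Sums of endothelial markers were 308 ± 29.4, 316 ± 25.0, 297 ± 7.45 and 291 ± 8.94 CPM in the 4 groups and those of mural cells 216 ± 13.4, 225 ± 28.7, 207 ± 14.9 and 211 ± 9.24. Oligodendrocyte markers had sums of 1838 ± 154, 2015 ± 226, 1739 ± 112 and 1687 ± 278 CPM and a median interaction of -0.25, with 10 of 10 members negative and 0 past the test. They were lower in the labelled knockout under clozapine in 10 of 10, with a median of -0.22 and 1 past the test (all genes 2%), and averaged over treatments in 9 of 10, with 1 past the test (all genes 10.5%). Microglial markers had 361 to 403, 365 to 401, 413 to 434 and 361 to 433 CPM in the 4 groups, with 2 of 10 higher past the test in the labelled knockout under vehicle, beside 9.16% of all tested genes either way. Oligodendrocyte precursors had 226 ± 12.5, 229 ± 13.0, 238 ± 4.03 and 239 ± 17.1 and interneurons 1034 ± 17.7, 1012 ± 5.61, 1001 ± 54.0 and 1059 ± 9.84 CPM. Of 7 precursor markers, 2 were higher and 1 lower past the test in the labelled knockout under vehicle (all genes 9.16%). Averaged over treatments 2 were likewise higher and 1 lower past the test (all genes 10.5%). Choroid plexus genes had 239 ± 39.2, 226 ± 4.70, 217 ± 7.38 and 228 ± 10.9 and ependymal genes 6.81 ± 0.898, 6.71 ± 0.301, 6.14 ± 1.18 and 5.83 ± 0.194 CPM. The choroid plexus sum was 284 CPM in wild-type vehicle 3, and it does not show the single genes. The 5 tested had log2 differences from -5.30 to 0.23 for clozapine in wild type and from -2.91 to 0.47 for genotype under vehicle, with 0 past the test. The part of these cells in the astrocyte values was not tested.

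**Figure D5:**
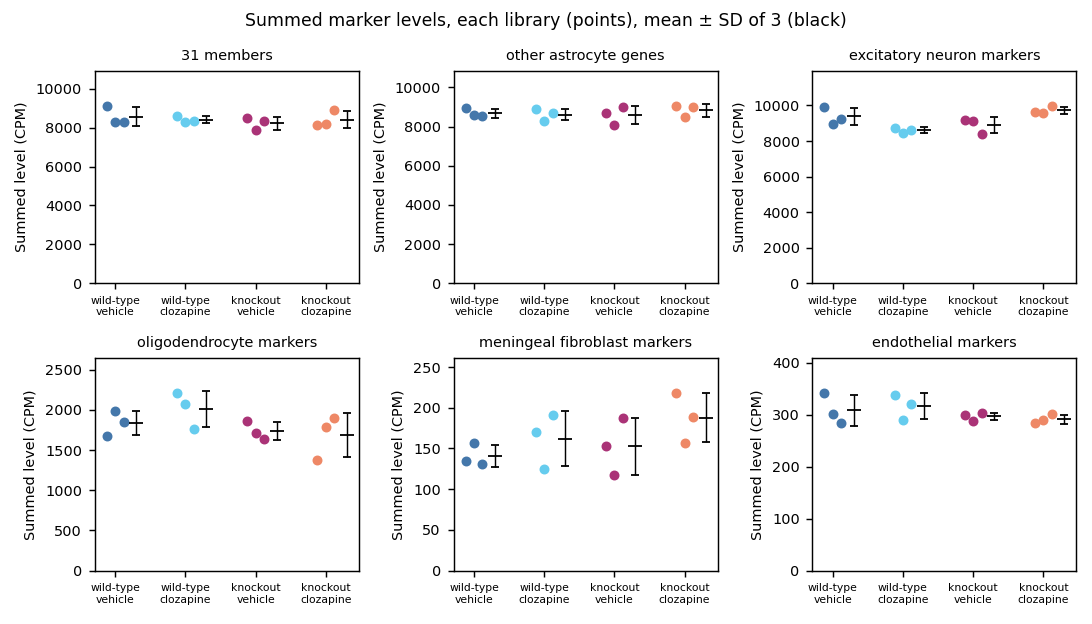
Summed expression in CPM of the 31 genes, of 34 other astrocyte genes and of 4 marker lists of other cells, in each library (points) with mean and SD of 3 libraries (black) and axes from 0. The astrocyte sums lie over each other in the 4 groups, between 7864 and 9107 CPM for the 31 genes, while the sum of the excitatory neuron markers is lower in wild-type clozapine than in wild-type vehicle, with 6 of its 9 genes lower and 1 of them past the test. In the labelled knockout that sum is higher under clozapine than under vehicle, with 7 of the 9 genes higher and 0 past the test.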

How the data were processed

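Sequencing of frontal cortex RNA gave 12 libraries in 4 groups of 3 by genotype and treatment. Per the submitters' processing notes, STAR 2.5.1b, featureCounts and the build GRCm38 were used; the annotation release and the use of strand are not given in the sources used here, so values of overlapping or antisense genes are uncertain. The authors deposited estimated counts for each gene, of which 7.39% are not whole numbers. Whole counts had been assumed when the tests were planned, so the values were rounded. Symbols came from GENCODE mouse release M21, which matched 46574 of 47069 identifiers.

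The 17286 genes kept by edgeR's filterByExpr, with 99.9% of counts, were tested in 1 fit of 4 group means with edgeR 4.0.16 in R 4.3.3 (TMM, factors 0.982 to 1.03, robust quasi-likelihood, Benjamini-Hochberg adjustment over all tested genes, threshold 0.05), after the code was tested on simulated data. Adjusted p-values are from this fit unless another tool is named. Intervals are 95% and unadjusted. Group and replicate numbers come from the labels, and no pairing was used.

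The members and all gene lists were chosen with earlier results of these data known. Every member is given by its libraries, its group means or the range of these means, and by its level in the text or the plot of levels. In a comparison where none passes, the 3 members of smallest p get their value in every library, log2 difference, SE and adjusted p. Of other lists at most 4 genes that pass are named. Gfap, Fabp7, the motifs, the limits of 1.2-fold and 1.5-fold and the bounds were chosen after values were seen.

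Alternatives were DESeq2 1.42.0, limma-voom (limma 3.58.1), RLE size factors, no low-count filter, a mean of at least 1 CPM, a replicate block, 1 surrogate variable (sva 3.50.0), unrounded counts, a threshold of 0.10, only the 2 groups compared, and leaving out each library. Number 1 occurs only in wild-type vehicle 1, which the replicate block therefore fits on its own.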

Additional observations from a re-analysis of the deposited data

How the results depend on the processing

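The count of members past the threshold was 0 in each of 7 comparisons, and 16 of 151 values under alternatives moved from it. For clozapine in wild type it was 2 with DESeq2 (Dio2, Fam107a), 1 at a threshold of 0.10 and 1 without a low-count filter (Fam107a both times), and 0 to 1 when a library was left out. The 1 was Htra1 without wild-type clozapine 2, Fam107a without knockout vehicle 5 and Dio2 without knockout clozapine 5. For genotype under vehicle it was 1 (Dio2) with DESeq2, with limma-voom, at 0.10 and with only the 2 groups compared, and 0 to 1 with a library left out, Agt without knockout vehicle 4 and Dio2 without knockout clozapine 5. For genotype averaged over treatments it was 0 to 1 with a library left out, again Agt and Dio2 without these 2 libraries. For clozapine averaged over genotypes it was 1 (Slc4a4) with DESeq2. The causes were not tested. RLE size factors, a mean of at least 1 CPM, 1 surrogate variable and unrounded counts gave 0 in each comparison. Of 796 values of single named genes under alternatives, 709 kept direction and side of the threshold and 0 changed direction. These genes were named for a small p in the same libraries, which makes a change of direction unlikely. A threshold of 0.10 cannot change a direction at all.

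With the replicate number as a block, the count for clozapine in the labelled knockout was 1 (Slc4a4, log2 difference 0.33) and 0 in the other 6 comparisons. Number 1 occurs only in wild-type vehicle 1, so the block fits that library on its own and takes it out of the group differences. The changes under the block therefore include the loss of that library. Over all genes the block moved the calls from 141 to 18 for clozapine in wild type, from 4 to 174 in the labelled knockout, from 1584 to 385 for genotype under vehicle, from 113 to 12 for the interaction and from 26 to 61 for clozapine averaged over genotypes. Deviations from group means correlated by -0.08 to 0.16 over 10 pairs of equal number and by -0.24 to 0.17 over 44 other pairs. Correlations over 0.1 were found in 3 of the 10 and in 7 of the 44. With so few pairs of equal number, these correlations cannot decide whether the numbers pair the libraries. The low members Agt and Sox9 had the widest intervals for clozapine in wild type.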
